A study of Mus musculus with 8 samples.

Results

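The genes described here are MYC, 6 of its best known targets in nutrient uptake and metabolism, and 30 factors that make ribosomes. They were chosen by name as a set of 37 genes, not by a rule on measured values, but with earlier results of these data known. A gene entered when a probe set on the array carried its symbol and no other, and the brightest such probe set over all arrays stood for it. This gave values for 35 of the 37, out of 22180 genes measured in this way. Fbl, the methyltransferase of box C/D small nucleolar RNA particles, and Tsr1, a late factor of the small ribosomal subunit, sit only on probe sets shared with other genes and have no value here. All 35 passed the filter on low intensity, which left 11585 genes to test.

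The values come from CD4 single-positive thymocytes of C57BL/6 mice, the helper-lineage T cells that finish their development in the thymus, sorted and hybridised to Mouse Gene 2.0 ST arrays. There were 4 arrays from wild-type (WT) cells and 4 from cells labelled Pggt1b_KO (KO). Pggt1b encodes a subunit of an enzyme that attaches geranylgeranyl lipids to proteins, and its loss is taken from the label. The labels name no Cre driver, no deleted exon and no age, and do not say whether arrays came from separate animals. P-values therefore measure the spread between these arrays, which may be technical.

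MYC is a transcription factor that binds DNA with its partner MAX at a short palindrome, the E-box, and raises the genes a cell needs to grow. Making ribosomes is one of its main outputs. RNA polymerase I transcribes the ribosomal RNA precursor in the nucleolus, small nucleolar RNA particles modify it, and separate sets of assembly factors cut and fold it into the small and the large subunit. In thymocytes MYC is known to be high in cycling cells and low in resting single-positive cells.

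The promoters show which of these genes carry the letters MYC is known to bind close to their start. RefSeq windows of build GRCm38.p6, 250 bases before to 50 after an annotated start, were found for 29 of the 37 genes. The E-box CACGTG, which reads the same on both strands, lies in the window of 6 of them (20.7%), against 8.09% of 27025 genes with a window and 9.19% of the 16990 that also have a probe set of their own on the array. The variant CACGCG, searched on both strands, lies in 9 (31.0%), against 10.5% and 13.9%. Neither background was limited to genes above the intensity filter, which all measured members passed. These matches are letters in a window, not measured binding, and no test was made. The window leaves out first introns, where Ncl and Odc1 are known to carry E-boxes.

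The 6 E-box matches are shown with up to 12 bases on each side and the E-box in capitals, because they differ in where the box lies. In Nop2 (chr6:125131811-125131840, plus strand) it begins 60 bases before the start. In Pes1 (chr11:3963965-3963994, plus), Wdr43 (chr17:71616220-71616249, plus), Tsr1 (chr11:74898092-74898121, plus), Utp20 (chr10:88826765-88826789, minus) and Mybbp1a (chr11:72441355-72441376, plus) it begins at base 3, 18, 25, 38 and 41 of the transcript. Utp20 and Mybbp1a are cut short by the end of the window.
Nop2: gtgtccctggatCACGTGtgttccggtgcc
Pes1: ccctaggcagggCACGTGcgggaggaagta
Wdr43: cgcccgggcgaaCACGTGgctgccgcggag
Tsr1: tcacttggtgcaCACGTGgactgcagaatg
Utp20: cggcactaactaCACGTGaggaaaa
Mybbp1a: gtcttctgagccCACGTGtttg

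None of the 5 of these genes that were measured was called changed in KO by the limma test described next. That test called 13.0% of all tested genes, so 0 of 5 lies near the background. The variant was found in the windows of Bysl, Tfrc and Odc1, which are 3 of the 4 members that fell. Rrs1, the fourth, has no window in the table, and the windows of Polr1a and Wdr12, which rose, hold neither form. Nhp2, Nolc1, Nop16, Ddx21, Mybbp1a and Pes1 also hold the variant and were not called. The search was made after the values were seen, and a link between the variant and the falls was not tested. The stretches before the outermost annotated start are printed for the 3 that fell, with the variant in capitals. They are Bysl (chr17:47611493-47611742, minus), Tfrc (chr16:32608646-32608895, plus) and Odc1 (chr12:17544623-17544807, plus). Odc1 holds the variant once on each strand. Tfrc has another window, at a later annotated start, that is not printed. There the variant begins 43 bases before the start, on the strand opposite to the printed match.
Bysl: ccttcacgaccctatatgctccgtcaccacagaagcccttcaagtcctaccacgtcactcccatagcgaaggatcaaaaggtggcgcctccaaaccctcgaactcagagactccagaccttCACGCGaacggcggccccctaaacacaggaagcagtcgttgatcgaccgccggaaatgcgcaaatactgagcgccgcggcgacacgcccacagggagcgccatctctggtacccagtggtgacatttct
Tfrc: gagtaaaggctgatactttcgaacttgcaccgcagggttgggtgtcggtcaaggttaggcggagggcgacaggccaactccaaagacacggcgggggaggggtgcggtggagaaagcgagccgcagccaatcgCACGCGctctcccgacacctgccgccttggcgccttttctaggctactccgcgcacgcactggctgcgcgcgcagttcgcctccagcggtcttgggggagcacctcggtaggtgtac
Odc1: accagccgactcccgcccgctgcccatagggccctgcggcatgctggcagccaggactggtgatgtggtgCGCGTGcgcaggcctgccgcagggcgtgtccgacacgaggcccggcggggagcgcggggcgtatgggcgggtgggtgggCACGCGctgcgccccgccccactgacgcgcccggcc

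As a set these genes differed little between the genotypes. Wdr12 and Polr1a rose in KO, while Tfrc, Odc1, Rrs1 and Bysl fell. The changes were between 1.14-fold and 1.32-fold, and Myc itself was not called. The threshold for a call is an adjusted p of 0.05 (limma, Benjamini-Hochberg over all 11585 genes), and differences are KO minus WT in log2 units, each with its standard error (SE). Of the 35 members 6 were called, or 17.1%, where 13.0% of all tested genes were. The 4 that fell are 11.4%, against 8.53% of all genes, and the 2 that rose are 5.71%, against 4.45%. These shares lie near the background. The difference was below 0 for 26 members, but 6851 of the 11585 genes (59.1%) also lay below 0. The members' median was -0.052, and that of all tested genes -0.030.

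None of the 35 differences reached 1.5-fold. The 95% interval of the difference lay within 1.5-fold in either direction for 34 of them, against 93.7% of all tested genes. The exception was Rrs1, whose interval reaches a 1.56-fold fall. In a sorted population, fewer cells that express a gene and less RNA per cell cannot be told apart. The counts of calls changed with single arrays. With any 1 array left out the number that fell was 0 to 2 and the number that rose 1 or 2. Over all tested genes the calls went from 1503 to between 813 and 1441 in those fits. At an unadjusted p under 0.05 limma put 5 to 8 members lower and 2 higher in those fits, and each called member kept its sign. With all arrays 5 of the 35 members were lower and 2 higher at that level, against 2221 and 1157 of all 11585 genes. Both shares of the members are below those of all genes. The same 2 counts over all genes are the background for the unadjusted counts of the lists below. With each array centred on its median 5 fell and 1 rose (16.7% of calls higher, against 33.3% in the main scaling), and over all genes 383 rose and 1321 fell in place of 515 and 988.

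**Figure D1:**
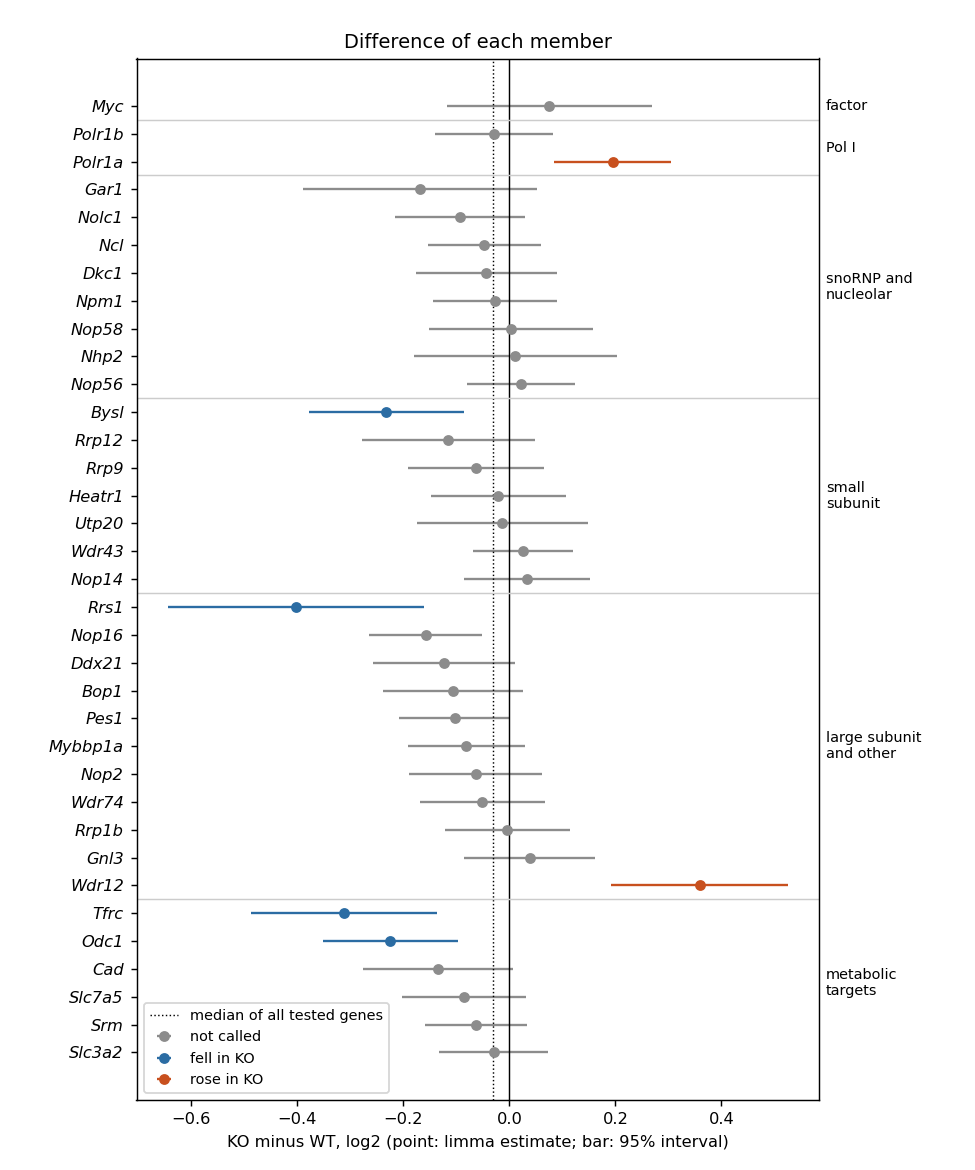
KO minus WT difference of each of the 35 measured members on the log2 scale (points) with its 95% interval from limma (bars), grouped by role. The dotted line marks the median of all tested genes, -0.030; the 4 members that fell and the 2 that rose are coloured, and most other intervals include 0.

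Myc, the transcription factor, had WT log2 intensities of 9.66, 9.71, 9.60 and 9.83, and KO ones of 9.61, 9.67, 9.84 and 9.98. The genotypes overlapped, with KO replicates 1 and 2 inside the WT range and replicates 3 and 4 above it. Its mean was 9.70 ± 0.096 in WT and 9.78 ± 0.17 in KO (SD, n = 4 arrays each). The difference was 0.075 ± 0.086 SE (limma adjusted p = 0.613), with a 95% interval from a 1.09-fold fall to a 1.20-fold rise. It ranged from 0.0063 to 0.13 when single arrays were left out, and was 0.21 with KO replicates 1 and 2 both left out.

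The other genes of the MYC network were not called except for 2. Of 15 tested factors and partners 0 rose and 2 fell by limma (13.3%, against 8.53% of all tested genes). At an unadjusted p under 0.05 limma put 3 lower and 0 higher. Mxd4, a repressor that competes with MYC for MAX, fell 1.20-fold (-0.26 ± 0.067 SE, adjusted p = 0.0334). Ruvbl1, a helicase subunit of chromatin complexes that MYC recruits, also fell 1.20-fold (-0.27 ± 0.062 SE, adjusted p = 0.0226). Mxd4 lost its call when WT array 1, 2 or 4, or KO array 1, 2 or 3, was left out, and Ruvbl1 when WT array 3, or KO array 1 or 3, was. Max differed by -0.084 (adjusted p = 0.436) and Mxd1 by -0.014 (0.887). Mycn and Mycl, the relatives of Myc, had WT means of 4.91 and 4.27, under the intensity filter of 5.56, and were not tested.

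Of the 2 subunits of RNA polymerase I in the set 1 was called. Polr1a, its largest and catalytic subunit, read 9.30, 9.33, 9.24 and 9.28 in WT and 9.54, 9.52, 9.40 and 9.47 in KO, so that every KO array lay above every WT array. It rose 1.14-fold (0.19 ± 0.049 SE, limma adjusted p = 0.0313). Leaving out WT array 2, 3 or 4, or KO array 1, 2 or 4, removed its call (largest adjusted p = 0.0877), as did centring each array on its median (adjusted p = 0.0702). Polr1b, the second largest subunit, differed by -0.029 and overlapped between the genotypes. Among 15 other genes of ribosomal DNA transcription 0 rose and 0 fell by limma, against 4.45% and 8.53% of all tested genes. At an unadjusted p under 0.05 limma put 3 lower and 2 higher. The smallest p-values there were those of Taf1d, a subunit of the promoter selectivity factor, at 0.16 (adjusted p = 0.0996), and of Polr1d, a subunit shared with RNA polymerase III, at -0.18 (0.103).

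Among the small nucleolar RNA particles and abundant nucleolar proteins 0 of 8 members were called by limma, against 13.0% of all tested genes. By limma 0 of the 8 had an unadjusted p under 0.05, against 3378 of the 11585 tested genes. Gar1, a core protein of box H/ACA particles, which guide pseudouridylation, showed the largest difference. It read 7.85, 8.14, 7.94 and 8.30 in WT and 7.97, 7.98, 7.75 and 7.85 in KO. The WT arrays spread widely and the genotypes overlapped, with a difference of -0.17 ± 0.099 SE (adjusted p = 0.293). Nolc1, a nucleolar phosphoprotein that carries these particles, had the smallest p of the group. It read 8.11, 8.26, 8.20 and 8.24 in WT and 8.19, 8.11, 8.03 and 8.09 in KO. The difference was -0.094 ± 0.055 SE (adjusted p = 0.291), and the lowest WT array lay below 2 of the KO arrays.

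The remaining members of this group lay within 0.05 log2 of 0. They were Ncl (nucleolin) at -0.047, Dkc1 (the pseudouridine synthase dyskerin) at -0.043, Npm1 (nucleophosmin) at -0.027, Nop58 at 0.0038, Nhp2 at 0.011 and Nop56 at 0.022. Nop56 and Nop58 are core proteins of box C/D particles and Nhp2 of box H/ACA particles. The intervals of these 6 genes reach no further than 1.13-fold down, for Nhp2, and 1.15-fold up, also for Nhp2. The signs of Nop56, Nop58 and Nhp2 turned with each array centred on its median. Dimmer probe sets stood at 0.050 for Npm1 and at 0.14 and 0.25 for Nop56.

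Of the 7 small subunit factors 1 was called (14.3%, against 13.0% of all tested genes). This was Bysl, which acts in late maturation of the subunit. It read 8.19, 8.28, 8.23 and 8.13 in WT and 7.93, 8.09, 7.83 and 8.05 in KO. Every KO value was under the lowest WT value, and it fell 1.17-fold (-0.23 ± 0.066 SE, limma adjusted p = 0.0453). Leaving out WT array 1, 2 or 3, or KO array 1, 3 or 4, removed the call (largest adjusted p = 0.113). Rrp12, of small subunit export, stood at -0.12 and Rrp9, a protein of the U3 particle, at -0.063. Heatr1, Utp20, Wdr43 and Nop14, all of the small subunit processome that assembles on the new transcript, lay between -0.021 and 0.033.

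Other factors of this stage were examined through a longer list. Of 39 further small subunit and small nucleolar particle factors 0 rose and 4 fell (10.3%, against 8.53% of all genes), with a median of -0.063. Rrp7a fell 1.22-fold (-0.28 ± 0.058 SE, limma adjusted p = 0.0141) and kept its call without any single array. Pno1, Noc4l and Nop9 fell 1.15-fold, 1.16-fold and 1.15-fold, with adjusted p from 0.0295 to 0.0378. All 3 lost their calls when WT array 2 or 4, or KO array 1 or 3, was left out, and 1 of the list fell then. Noc4l and Nop9 also lost theirs when WT array 3 or KO array 2 was, which left 2 falls, and Nop9 when KO array 4 was.

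The 11 large subunit and other nucleolar factors held both the largest rise and the largest fall of the set. Wdr12, Pes1 and Bop1 form 1 complex of large subunit assembly, and 1 of the 3 was called. Wdr12 read 7.78, 7.80, 7.68 and 7.82 in WT and 8.24, 8.07, 7.95 and 8.26 in KO. Every KO array lay above every WT array, and it rose 1.28-fold (0.36 ± 0.075 SE, limma adjusted p = 0.0146). This was the 1 call among the members that held with any single array left out (largest adjusted p = 0.0460). Pes1 and Bop1 stood at -0.10 and -0.11 (adjusted p = 0.173 and 0.265), and both overlapped between the genotypes. The intervals of Pes1 and Bop1 reach at most 1.02-fold up, while that of Wdr12 runs from 0.19 to 0.53 log2. No test of the difference between the genes was made.

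Rrs1, which brings the 5S RNA particle into the large subunit, read 7.03, 7.11, 6.99 and 7.44 in WT and 6.91, 6.60, 6.61 and 6.83 in KO. The genotypes did not overlap, although WT replicate 4 stood apart from the other WT arrays. It fell 1.32-fold (-0.40 ± 0.11 SE, limma adjusted p = 0.0380). Leaving out WT array 2 or 4, or KO array 2, 3 or 4, removed the call (largest adjusted p = 0.0960). Rrs1 has a second, dimmer probe set, which differed by -0.062, and the mean of both gave -0.23 with an adjusted p of 0.120.

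Nop16, another large subunit factor, narrowly missed the threshold and is given because its groups do not overlap, which was seen in its values. It read 9.46, 9.36, 9.39 and 9.43 in WT and 9.25, 9.31, 9.20 and 9.23 in KO, a difference of -0.16 ± 0.048 SE (limma adjusted p = 0.0572). Without the intensity filter its adjusted p was 0.141. It passed with a mean log2 of at least 6 (adjusted p = 0.0486), with array weights (0.0476), with an intensity trend and robust prior (0.0394) and with each array centred on its median (0.0268). The others were the RNA helicase Ddx21 at -0.12, Mybbp1a, a MYB-binding nucleolar protein, at -0.081, Nop2, a ribosomal RNA cytosine methyltransferase, at -0.064, Wdr74 at -0.052, Rrp1b at -0.0043 and the nucleolar GTPase Gnl3 (nucleostemin) at 0.038. None of these 6 was called, and all overlapped between the genotypes. The dimmer probe set of Ddx21 stood at -0.22.

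Of 41 further large subunit factors 1 rose (2.44%, against 4.45% of all tested genes) and 2 fell (4.88%, against 8.53%). Ppan, a large subunit factor that binds to early precursors, rose 1.28-fold (0.35 ± 0.048 SE, limma adjusted p = 0.00205) and kept its call without any single array. Rpf2, a partner of Rrs1 in bringing in the 5S particle, fell 1.15-fold (adjusted p = 0.0429), and Senp3, a nucleolar SUMO protease, fell 1.13-fold (0.0325). Rpf2 and Senp3 each kept their calls in 1 of the 8 fits that left an array out, the fit without WT array 1. With centring on the array medians 1 of the 41 rose and 6 fell. Over all 123 genes of ribosomal RNA synthesis and ribosome assembly, members included, 8 fell (6.50%) and 3 rose (2.44%), with a median of -0.055. Of all tested genes 8.53% fell and 4.45% rose. The difference lay below 0 in 74.8% of the 123, against 59.1% of all genes, and in 17.1% the KO arrays lay wholly below the WT arrays, against 13.5%.

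**Figure D2:**
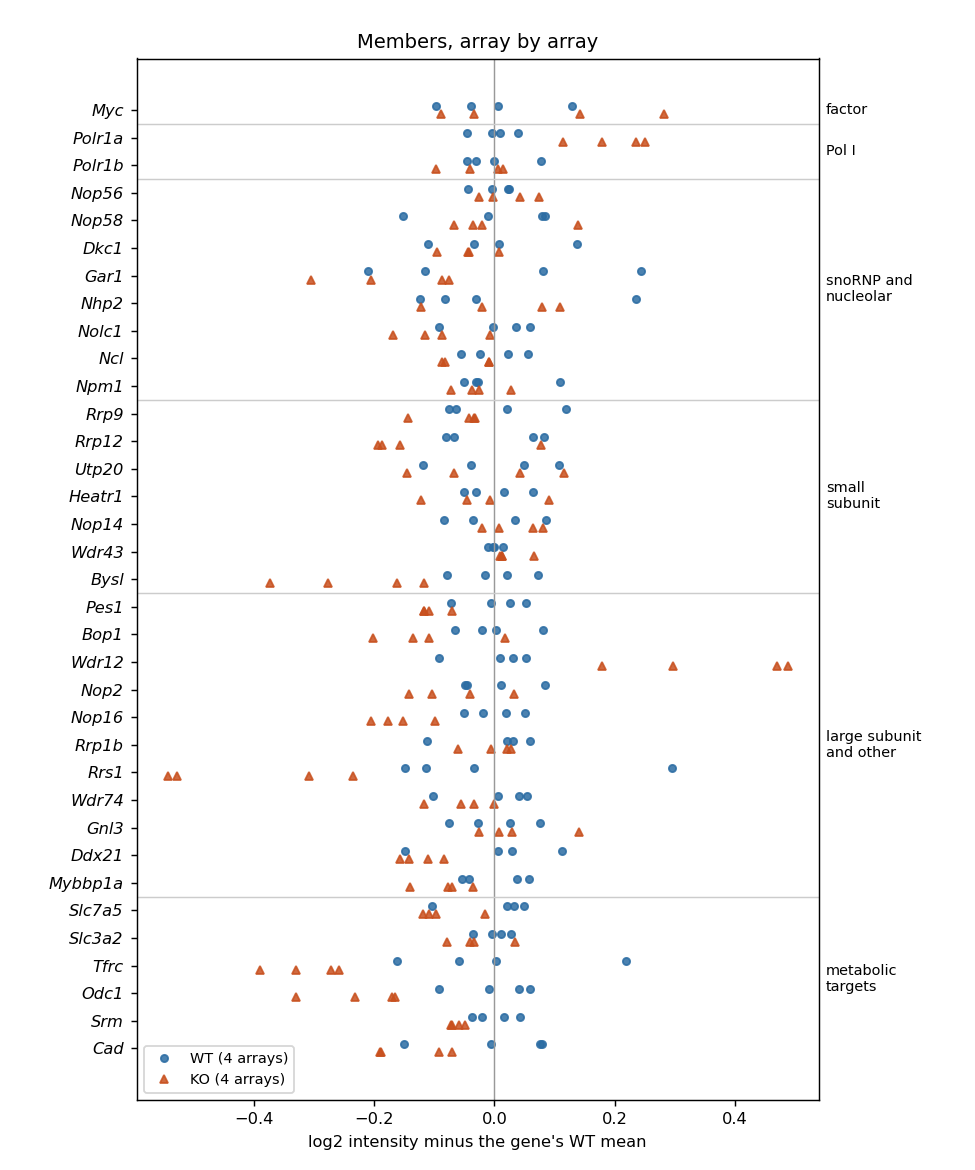
Log2 intensity of each member in each of the 8 arrays after subtracting that gene's WT mean (circles WT, triangles KO), grouped by role. In Wdr12 and Polr1a all triangles lie to the right of all circles, in Tfrc, Odc1, Rrs1, Bysl, Nop16 and Srm all lie to the left, and in the other 27 genes they overlap.

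The plot of single arrays shows the same by eye. In 6 members the KO arrays lay wholly below the WT arrays, which is 17.1%, against 13.5% of all tested genes. In 2 members they lay wholly above, which is 5.71%, against 6.79%.

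The cytosolic ribosomal proteins, which these factors build into the subunits, had a median difference close to 0. Of 57 tested genes 1 rose by limma (1.75%, against 4.45% of all genes) and 0 fell (against 8.53%). At an unadjusted p under 0.05 limma put 4 higher and 1 lower, and the median of the 57 was 0.030. Below 0 lay 17 of them (29.8%), against 59.1% of all tested genes. Centring the arrays on their medians, which lowers the median of all genes from -0.030 to -0.064, gave a list median of -0.0043. Under each of the 3 scalings 12 of the 57 lay below the median of all genes. The gene that rose was Rps15, 1.24-fold (0.31 ± 0.086 SE, adjusted p = 0.0421). Its genotypes overlapped. It lost its call when WT array 1, 2 or 3, or KO array 1, 2 or 4, was left out, and under both other scalings. Many ribosomal protein genes have near-identical processed pseudogenes, so their probe sets may read more than 1 locus. Only 59 of the 79 genes listed had a probe set of their own.

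All 6 nutrient and metabolic targets of MYC had a negative difference, and 2 of them were called. The calls are 33.3% of the 6, against 8.53% of all tested genes that fell, and 59.1% of all genes lay below 0. Their median was -0.11, and 5 of the 6 lay below the median of all genes. Tfrc, the transferrin receptor through which cells take up iron, measured 8.59, 8.75, 8.69 and 8.97 in WT and 8.49, 8.42, 8.48 and 8.36 in KO. The KO arrays were close together below all WT arrays, and it fell 1.24-fold (-0.31 ± 0.078 SE, limma adjusted p = 0.0306). Leaving out WT array 2 or 3, or any KO array, removed the call (largest adjusted p = 0.0710).

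Odc1, ornithine decarboxylase, makes the first polyamine. It read 7.79, 7.65, 7.74 and 7.81 in WT and 7.51, 7.58, 7.58 and 7.42 in KO. No KO array reached the WT range, and it fell 1.17-fold (-0.22 ± 0.057 SE, limma adjusted p = 0.0317). Leaving out WT array 1, 3 or 4, or KO array 1, 3 or 4, removed the call (largest adjusted p = 0.0776). Srm, spermidine synthase, the next enzyme, stood at -0.062 (adjusted p = 0.376), with all KO arrays just below all WT arrays. Cad, the enzyme that opens pyrimidine synthesis, stood at -0.14 (0.190). Slc7a5 and Slc3a2, the light and heavy chain of the same leucine transporter, stood at -0.085 and -0.030 (0.317 and 0.716).

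The pathways around these 6 genes were examined next, beside the 13.0% of all tested genes that were called. None of 9 other polyamine genes was called by limma, with 1 higher and 0 lower at an unadjusted p under 0.05. The 2 smallest p-values were those of Sat1, which acetylates polyamines for breakdown, at 0.14, and of the salvage enzyme Mtap at -0.14. None of 10 other amino acid transporters was called, with 2 lower and 1 higher unadjusted. The glutamine transporter Slc1a5 stood at 0.15 (adjusted p = 0.0777) and Slc7a6 at -0.22 (0.107). None of 7 other iron genes was called, with 2 lower and 0 higher unadjusted. Aco1, the iron regulatory protein that binds Tfrc mRNA, stood at -0.20 (0.0539) and Ncoa4, the ferritinophagy receptor, at -0.14 (0.114). Under both other scalings 1 of the 7 fell.

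Nucleotide synthesis held calls in both directions. Of 21 tested genes 3 fell (14.3%, against 8.53% of all genes) and 2 rose (9.52%, against 4.45%), with a median of -0.12. At an unadjusted p under 0.05 limma put 9 lower and 2 higher. Umps, the last enzyme of UMP synthesis and thus downstream of Cad, fell 1.21-fold (-0.27 ± 0.046 SE, limma adjusted p = 0.00581). Shmt1, the cytosolic serine hydroxymethyltransferase, fell 1.26-fold (adjusted p = 0.0102), and both calls held without any single array. Mthfd1l, of mitochondrial one-carbon metabolism, rose 1.18-fold (0.0185), a call lost when KO array 1 was left out. The CTP synthases went opposite ways. Ctps fell 1.15-fold (adjusted p = 0.0249), a call lost when WT array 2 or 3, or KO array 2 or 3, was left out. Ctps2 rose 1.14-fold (0.0323), a call lost when WT array 2 or 3, or KO array 1, 3 or 4, was. With centring 6 of the list fell and 1 rose, and with a second quantile normalization 5 fell and 2 rose. The list's falls numbered 5 when KO array 4 was left out and 2 to 4 when any other was.

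A further 22 MYC targets in translation, protein folding and growth had 5 falls (22.7%, against 8.53% of all genes) and 0 rises by limma, with 6 lower and 0 higher at an unadjusted p under 0.05. Cdc25a, the phosphatase that activates CDK2, fell 1.34-fold (-0.42 ± 0.061 SE, adjusted p = 0.00300). Cdk4 fell 1.20-fold (adjusted p = 0.00728), Ran, the GTPase of nuclear transport, 1.23-fold (0.0123), and the arginine methyltransferase Prmt5 1.20-fold (0.0132). These 4 calls held without any single array. Ccnd2, cyclin D2, was the remaining fall (0.0483) and lost its call when WT array 2, 3 or 4, or KO array 1, 2 or 3, was left out. Of the 5 genes, Cdc25a, Cdk4 and Ccnd2 act in the cell cycle.

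**Figure D3:**
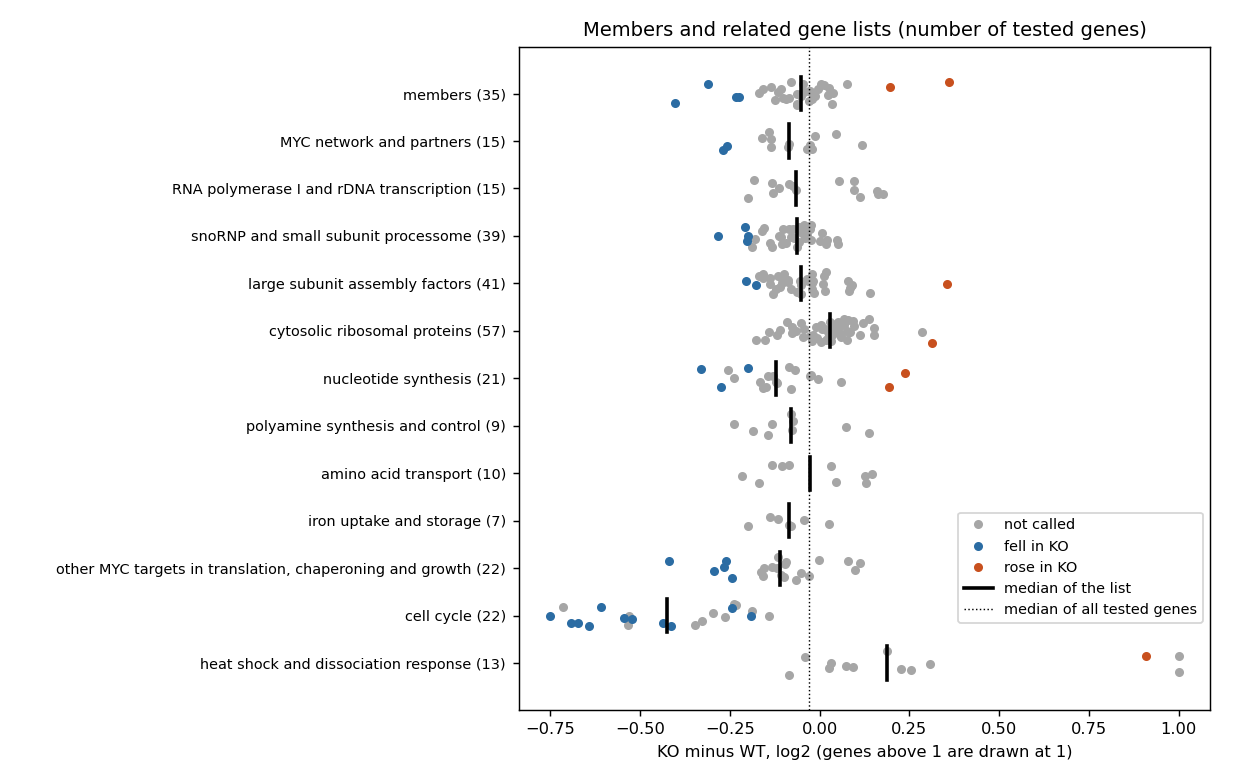
KO minus WT difference (log2) of each tested gene in the member set and in 12 related lists, 1 point per gene, with the list's median as a black bar and the median of all tested genes as a dotted line. Most points of the ribosome lists lie between -0.2 and 0.2, while all 22 cell cycle genes lie below 0 with a median of -0.43.

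Cell cycle genes are given beside the members because MYC targets are known to be higher in cycling cells. Of 22 tested genes 11 fell (50.0%, against 8.53% of all genes) and 0 rose by limma. At an unadjusted p under 0.05 limma put 21 lower and 0 higher. Mcm2, Rrm1, Mcm5 and E2f1 fell by 0.44, 0.41, 0.55 and 0.52 on the log2 scale, and these calls held without any single array. The list's falls numbered 5 to 7 when any of WT arrays 1 to 3 or KO arrays 1 to 3 was left out, 16 when WT array 4 was and 13 when KO array 4 was. In the arrays the mean of this list was 8.53, 8.64, 8.55 and 8.21 in WT and 8.02, 7.92, 8.03 and 8.23 in KO, so that WT replicate 4 lay with the KO arrays.

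The members' mean did not order the arrays in the same way. Relative to the mean of all arrays it was 0.0081, 0.041, 0.0032 and 0.064 in WT and -0.0051, -0.034, -0.057 and -0.020 in KO. WT replicate 4, the lowest WT array for the cell cycle, was the highest of all for the members. The KO arrays lay below the WT arrays. The mean of all tested genes went the same way in part, at -0.0023, 0.034, 0.0037 and 0.025 in WT and 0.00098, -0.040, -0.0095 and -0.013 in KO. The members' mean went further in WT replicate 4 and KO replicate 3. The mean difference was -0.058 for the members and -0.031 for all tested genes. With the mean of all tested genes subtracted, the members' mean was 0.010, 0.0064, -0.00050 and 0.039 in WT and -0.0061, 0.0058, -0.047 and -0.0074 in KO, and the genotypes overlapped. The part of the cell cycle in the members' differences was not tested.

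**Figure D4:**
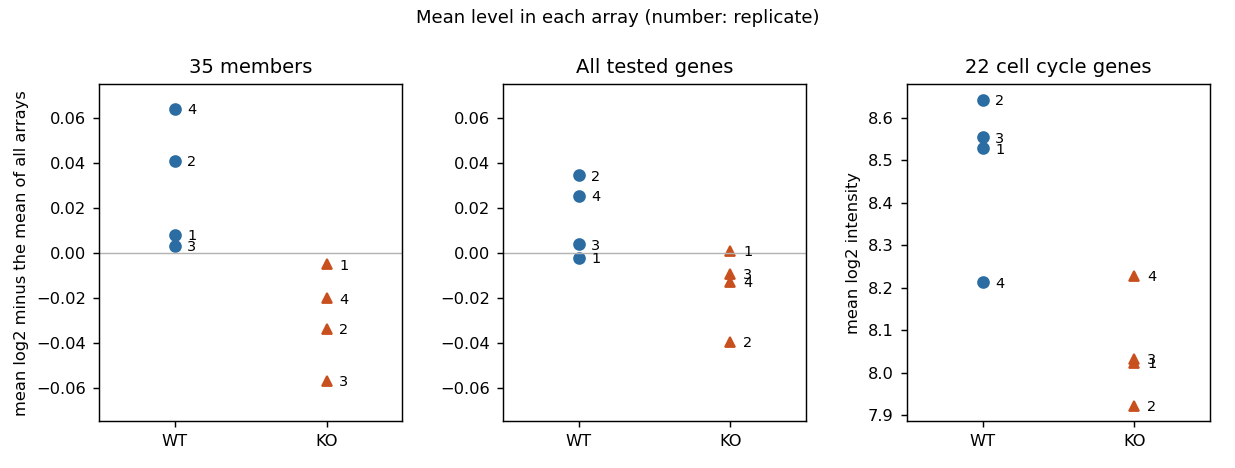
Mean level in each array of the 35 members (left) and all tested genes (middle), each relative to its mean over the 8 arrays, and of 22 cell cycle genes (right, log2 intensity), with circles for WT, triangles for KO and the replicate number beside each point. WT replicate 4 is the highest array for the members and the lowest WT array, at 8.21, for the cell cycle genes.

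The arrays also differed in genes that respond to sample handling. The mean of the heat-shock genes Hspa1a and Hspa1b lay between 5.27 and 8.58 in WT. It was 10.3, 9.79, 4.57 and 8.25 in KO. Of 13 tested genes of heat shock and the response to tissue dissociation 11 lay above 0, with a median of 0.19. By limma 1 of them rose (7.69%, against 4.45% of all genes), the transcription factor Jun, by 0.91 ± 0.22 SE (adjusted p = 0.0288). At an unadjusted p under 0.05 limma put 3 higher and 0 lower. Jun lost its call when WT array 1 or 3, or KO array 1, 2 or 4, was left out. The part of this response in the members' values was not tested. With the Hspa1a and Hspa1b level as a covariate 1 member fell and 1 rose, and the calls over all 11585 tested genes went from 1503 to 874. Without KO replicates 1 and 2 limma called 0 members and 258 of all tested genes. At an unadjusted p under 0.05 limma put 6 members lower and 3 higher there. Without WT replicates 2 and 3 limma called 0 members and 295 of all tested genes, with 5 members lower and 2 higher unadjusted. The sorted identity was examined through markers. All 7 measured T cell markers stood between 9.96 and 12.6 in both genotypes and 0 were called by limma, with 0 at an unadjusted p under 0.05. Of 5 markers of double-positive thymocytes and the CD8 lineage all 5 lay below 0, and Cd8a fell from 9.48 to 8.75 (limma adjusted p = 0.0354). At an unadjusted p under 0.05 limma put 3 of the 5 lower and 0 higher. In 60% of the 5 the KO arrays lay wholly below the WT arrays, against 13.5% of all tested genes. Of 5 markers of regulatory T cells Tnfrsf18 fell 1.25-fold (0.0098), and the 5 differences ran from -0.32 to 0.17. Of 3 tested stromal markers Pecam1, an endothelial protein, rose 1.18-fold (0.0286). The 3 had a median of 0.015 and reached down to -0.15. The 2 tested myeloid and dendritic markers stood at -0.29 and 0.26. By limma 0 of these 2 were called, and 1 was higher at an unadjusted p under 0.05. The part of these cell types in the members' values was not tested. Cd8a lost its call when WT array 2 or 3, or KO array 2 or 4, was left out, and Pecam1 when WT array 2, 3 or 4, or KO array 1, 2 or 3, was. Of 4 measured B cell markers Ms4a1, Pax5 and Cd79a stood at 3.93, 5.12 and 5.40 in WT, under the filter, and Cd79b, which passed it, at 6.82 in WT and 6.88 in KO. Pggt1b itself fell 1.51-fold (-0.59 ± 0.072 SE, adjusted p = 0.00141), and its genotypes did not overlap.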

How the data were processed

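Per the submitters' processing notes, the authors made the deposited log2 values by RMA with Expression Console 1.1. The labels name Mouse Gene 2.0 ST arrays and amplification of nanogram amounts of RNA. The sources used here give no genome build. RMA gives the probe intensities of the arrays a common distribution before they are summarised, so a change in total RNA per cell is not seen. The deposited probe-set values had array medians from 5.52 to 5.59. The number of arrays limits the precision.

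Of 41345 probe sets 23521 carried 1 gene symbol in a platform annotation, 1814 several, and 16010 are unnamed here. The brightest probe set by mean stood for a gene, and genes with a mean of at least 5.56, the median of all probe sets, were tested. The genotypes were compared with limma 3.58.1 (R 4.3.3) and Benjamini-Hochberg adjustment, and the fit was tested on simulated data. Alternatives changed the filter, probe-set rule, scaling, array weights, prior, threshold, covariates and arrays. Promoter windows came from RefSeq, and the motif search was added after the values were seen.

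The members, related gene lists and alternatives were chosen with earlier results of these data known. Values by array are given for Myc, every called member and, in each role, the member with the smallest p and the largest difference. Related lists name called genes up to 4 by p, or the 2 smallest p where none was called. Ctps2, Ccnd2, Max, Mxd1, Mycn and Mycl lie outside this rule and were named after their values were seen, as were some markers.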

Additional observations from a re-analysis of the deposited data

Results flagged for a closer look

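In each of 70 groups of 4 arrays (35 members in each genotype) the gap from the highest or lowest array to its nearest neighbour was divided by the range of all 4. In 5 groups it was above the 95% limit of Dixon's test, where chance gives about 1 in 20. Npm1 read 10.89 in WT replicate 3, with the next array at 10.75. KO replicate 1 accounted for 3 of the 5. It was low for Rrp9, at 8.285 against 8.386 in the nearest array, and high for Rrp12, at 7.401 against 7.166, and for Wdr43, at 10.13 against 10.08. Pes1 read 8.745 in KO replicate 2, with the next array at 8.706. KO replicate 1 also had the highest Hspa1a and Hspa1b level of the 8 arrays, and its part in these values was not tested.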

How the results depend on the processing

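No paired analysis was possible because the labels give no replicate numbers that tie arrays of the genotypes to each other. Over all tested genes 1503 were called. The count was 446 at an adjusted p under 0.01, 874 with a heat-shock covariate, 920 with no intensity filter, 258 when KO replicates 1 and 2 were left out and 295 when WT replicates 2 and 3 were, and it ran from 813 to 1441 without single arrays. The number of members that fell, 4 in the main setting, was 0 at an adjusted p under 0.01, with no intensity filter, and with either pair of arrays left out. At an unadjusted p under 0.05 limma put 5 or 6 members lower in these settings. In the main setting 5 members and 2221 of all 11585 tested genes were lower at that level. The number that fell was 1 with the heat-shock covariate and 2 with the titles' sample number as covariate. It was 0 to 2 without single arrays, where 5 to 8 were lower unadjusted. The number that rose, 2, was 0 at an adjusted p under 0.01 and without either pair of arrays, where 2 or 3 were higher unadjusted. It was 1 with no intensity filter, with the heat-shock covariate and with each array centred on its median, and 1 or 2 without single arrays. The members' median, -0.052, moved to -0.086 with centring on the array medians and ran from -0.069 to -0.036 without single arrays. The sign turned for 10 members in 38 of their fits, none of them called in the main setting and none past 0.066 in size. With this centring Nop56 was -0.012, Nop58 -0.030, Nhp2 -0.023, Nop14 -0.00088 and Wdr43 -0.0089. A second quantile normalization gave -0.0048 for Nop58, array weights -0.016, the heat-shock covariate -0.028 and the sample number -0.020. Utp20 was 0.0022, 0.0024 and 0.045 with array weights, the heat-shock covariate and the sample number, and Rrp1b 0.0028 and 0.0031 with array weights and the sample number. Npm1 was 0.012 with the mean of its probe sets. Without KO replicates 1 and 2 Nop58 was -0.044, Nhp2 -0.0066 and Nop14 -0.0063, and without WT replicates 2 and 3 Nhp2 was -0.066 and Npm1 0.0022. Without single arrays the ranges were -0.047 to 0.032 for Nop58, -0.080 to 0.0024 for Dkc1, -0.030 to 0.090 for Nhp2, -0.045 to 0.0093 for Npm1, -0.056 to 0.030 for Utp20, -0.058 to 0.013 for Heatr1 and -0.042 to 0.016 for Rrp1b. The cause of these changes was not tested.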
